A study of Homo sapiens with 8 samples.

Results

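HSC39 is a human cell line from a signet ring cell carcinoma of the stomach. Its transcriptome under a negative control siRNA is described here from the 4 arrays that the labels title HSC39 negative, of 8 arrays in all. These 4 samples are labelled as treated with All stars negative siRNA. The other arrays hold cells given siRNA against TRIM44, 2 with siRNA 7 and 2 with siRNA 9. Per the labels, cells of all groups grew in RPMI with 10% fetal calf serum. The protocol gives transfection with TRIM44 siRNA at 100 nM (its text has nm) over 48 h, also under the negative samples, and the series text calls the comparison cells untreated, so the sample labels were used. HSC39 is 1 line, the 4 arrays are replicates of it, and the series counts them as biological replicates without saying how the cultures were kept apart. No array of cells without siRNA was analysed here, so a resting state and an effect of transfection cannot be told apart.

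Signet ring cells are filled with mucin that pushes the nucleus aside, and they lie singly instead of in glands. Normal gastric mucosa makes gastric mucins, trefoil peptides, gastrokines and digestive enzymes, whereas intestinal goblet cells make the gel mucin MUC2 under the transcription factors ATOH1 and SPDEF. Many gastric carcinomas carry an intestinal programme set by the caudal factors CDX1 and CDX2. Epithelial sheets hold together through E-cadherin, which binds catenins inside the cell. HSC39 has been described as carrying a truncated beta-catenin that binds alpha-catenin poorly.

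Each value is the deposited log2 level of 1 probe set on 1 array. The 19158 probe sets that name exactly 1 gene stand for 18404 genes, and a gene with several is given by the one of highest mean. Probe sets differ in affinity, so a level, and the percentile of a mean among all 19158, describes signal and not the amount of transcript of one gene against another. To judge the floor, 340 olfactory receptor genes and 22 genes of eye, testis and blood were used as lists that an epithelial line should leave silent. Their medians were 4.86 and 6.25, and their 95th percentiles, 6.17 and 7.27, are called the lower and the higher reference level. Of all genes, 10073 (54.7%) had a mean above both levels and 5111 (27.8%) lay at or below the lower one, so 13293 (72.2%) passed the lower level alone. The remaining 3220 lay between the levels and could be read neither as expressed nor as silent. Of the 22 genes of eye, testis and blood, 2 lay above both levels, the highest at 8.64. A mean above both levels therefore does not by itself show expression. THY1 at 6.19 and SLC2A3 at 6.17 lay on either side of the lower level, and FGF18 at 7.28 and PTK7 at 7.27 on either side of the higher.

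**Figure D1:**
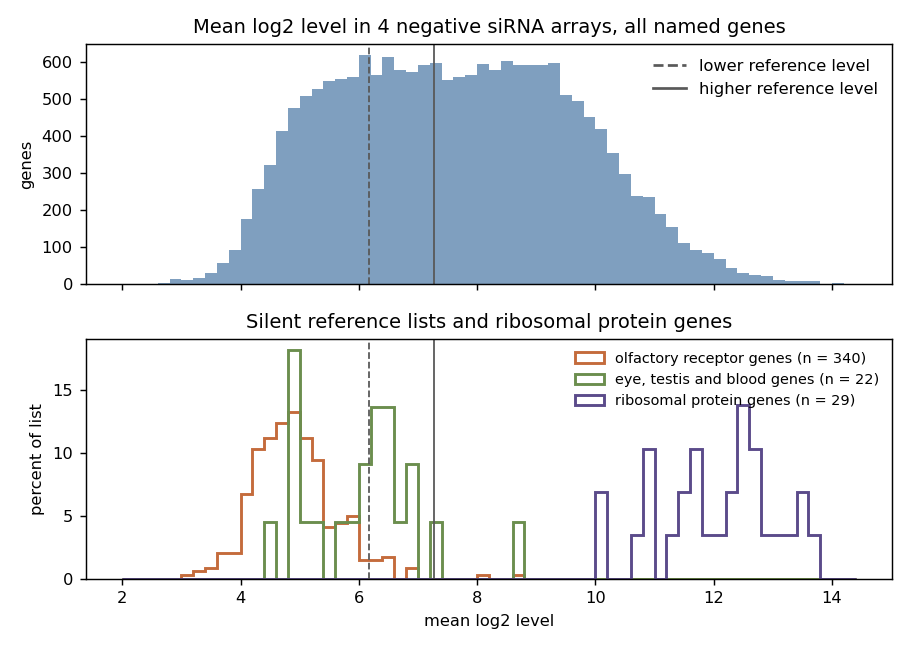
Upper panel: number of genes (y axis) by mean log2 level over the 4 negative siRNA arrays (x axis). Lower panel: percent of each list by the same level, for olfactory receptor genes, genes of eye, testis and blood, and ribosomal protein genes. The dashed line marks 6.17 and the solid line 7.27; the ribosomal protein genes all lie right of both, and the silent lists lie mostly left of the solid line.

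The 4 arrays had medians of 7.53 to 7.57, and pairs of them correlated at 0.991 to 0.997 across named probe sets. Array 2 was the least like the others, with a lowest correlation of 0.991 with array 4. It held the lowest value of the 4 for 50.4% of the genes at or below the lower level, while array 4 held the highest for 50.9%. Among genes above both levels, array 2 held the highest value for 38.4% and the lowest for 33.8%. TRIM44, the gene the study targets, was at 11.91, 12.02, 11.91 and 11.77 on arrays 1 to 4, so all 4 lay above the highest siRNA array, at 11.27.

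The brightest probe sets were mostly of housekeeping genes. GAPDH, the glycolytic dehydrogenase, had a mean of 14.07 ± 0.03 (SD, n = 4), and RPS28, H1-4, PTMA and TUBB followed in rank at 14.03, 14.02, 13.89 and 13.77. Next came FAF2, GSTP1, COX6A1, HSPA8 and ENO1 at 13.76, 13.71, 13.70, 13.70 and 13.69. RPS3, ACTG1, RPL5, ACTB and RPL18 closed the first 15, between 13.53 and 13.62. Apart from PTMA and FAF2, they encode glycolytic enzymes, ribosomal proteins, histone, tubulin and actin, a chaperone, a respiratory chain subunit and a glutathione transferase. RPL5 has another probe set whose mean was 3.85 log2 lower, and RPS28, PTMA, FAF2 and COX6A1 also have dimmer probe sets, so these levels depended on the probe set. All 29 measured ribosomal protein genes lay above both levels, with a median of 12.29 against 7.58 over all genes.

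The dimmest probe sets belonged to short RNA genes, named here after their values were seen. SNORD115-4 was at 2.56 and SNORD116-18 at 2.62, both from imprinted clusters of small nucleolar RNAs that are known for neuronal expression. MIR302A, from a microRNA cluster of pluripotent cells, was at 2.80. These means lay far under the median of the olfactory receptor genes.

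Transcription factors of the gut epithelium were broadly bright. Of 36 measured, 32 lay above both reference levels and 0 at or below the lower one, against 54.7% and 27.8% of all genes. The list's median was 9.22. ATOH1, the factor that commits intestinal cells to the secretory lineage, read 12.28, 12.26, 12.25 and 12.41 on arrays 1 to 4, with a mean at percentile 99.2. SPDEF, which matures goblet cells, read 11.52, 11.50, 11.45 and 11.47. These arrays differed little, and the SDs of both genes, 0.07 and 0.03, were below the 0.13 of the median gene. XBP1, a driver of the secretory machinery, had a mean of 12.05, KLF5 one of 11.30 and FOXA2 one of 10.82.

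The intestinal master factors and the gastric factor SOX2 all lay above both reference levels. CDX1 read 10.08, 10.07, 10.08 and 10.32, and CDX2 read 8.57, 8.43, 8.58 and 8.75. SOX2, a factor of foregut and stomach identity, read 9.61, 9.92, 9.60 and 9.75. All 12 of these values lay above the higher level, and array 4 was the highest for both caudal factors. CDX2 lay near the 8.64 of the highest eye, testis and blood gene, so its level alone does not show that it is expressed. GATA6, a gut endoderm factor, had a mean of 9.66 ± 0.12 (SD, n = 4). NKX2-1 of lung and thyroid, NEUROG3 of the endocrine lineage and ISX, an intestinal factor, lay between the levels at 6.81, 6.54 and 6.24.

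Intestinal products ranged from among the brightest probe sets to the floor. Of 42 measured, 24 lay above both levels (57.1%, near the 54.7% of all genes), 5 between and 13 below, with a median of 7.89. CEACAM5, the carcinoembryonic antigen, had a mean of 12.86 at percentile 99.7, and its relative CEACAM6 one of 12.09. LGALS4, KRT20, AGR2 and VIL1, a lectin, a keratin, a disulfide isomerase of mucin cells and the brush border protein villin, had means of 12.21, 12.18, 12.09 and 12.02. The goblet cell protein FCGBP was at 11.99 and the intestinal cadherin CDH17 at 11.46. TFF3, the goblet cell trefoil peptide, read 10.52, 10.996, 10.48 and 10.45, with array 2 apart from 3 close values.

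The lowest members of the same list were at the floor. The sucrase SI read 4.62, 5.02, 4.66 and 4.75, and the chloride exchanger SLC26A3 had a mean of 4.38. REG3A, CA1 and MTTP, an antimicrobial lectin, a carbonic anhydrase and a lipid transfer protein, were at 4.44, 4.55 and 4.53. The stem cell genes OLFM4 and LGR5 were also below the lower level, at 4.76 and 5.51.

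Gastric products were mostly not bright. Of 25 measured (5 further listed genes are not analysed here), 3 lay above both levels (12.0%, against 54.7% of all genes), 11 between and 11 below, and their median was 6.24. Those 3 were CAPN9, a protease of the digestive tract, at 9.68, the trefoil peptide TFF1 at 9.16 and TM4SF5, a tetraspanin-like membrane protein, at 8.45. TFF1 read 9.03, 9.60, 8.98 and 9.02, again highest on array 2. The gastrokines GKN1 and GKN2 and the lipase LIPF were at the floor on every array. GKN1 read 4.30, 4.19, 4.37 and 4.18, GKN2 had a mean of 3.89 and LIPF one of 3.62. The pit and gland cell genes TFF2, MUC6 and CLDN18 lay between the levels, at 6.43, 6.90 and 6.24, and the hormone and channel genes GAST, AQP5 and GHRL at 7.22, 7.20 and 7.03. The array values therefore do not say whether these 6 are expressed.

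**Figure D2:**
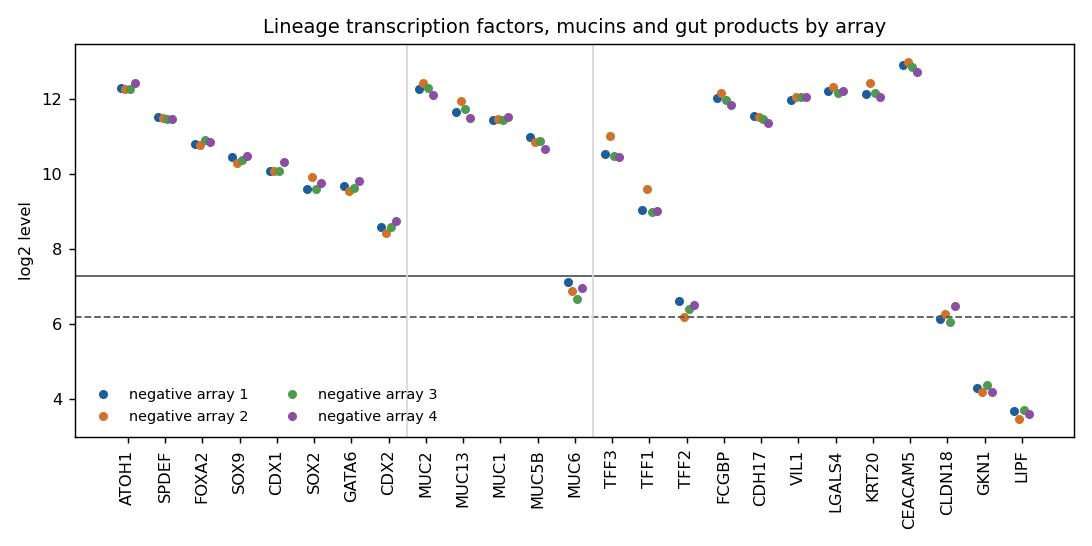
Log2 level (axis in log2 units) of gastric and intestinal lineage genes on each of the 4 negative siRNA arrays, 1 point per array, with the reference levels 6.17 and 7.27 as lines. ATOH1, SPDEF, MUC2 and CDX2 lie above both lines on all 4 arrays and GKN1 below both.

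Among the 18 mucins measured, the intestinal MUC2 had the probe set of highest mean; 2 further listed mucins are not analysed here, and its rank is among those measured. MUC2 read 12.25, 12.42, 12.28 and 12.11 on arrays 1 to 4, a mean of 12.26 at percentile 99.2 of all probe sets. The membrane mucins MUC13 and MUC1 had means of 11.70 and 11.46, and the gel-forming MUC5B one of 10.84. MUC3A, MUC12 and MUC21 were at 8.55, 8.08 and 7.56, where MUC12 and MUC21 have other probe sets 3.05 and 3.46 log2 lower. In all, 9 of 18 measured mucins lay above both levels, 5 between and 4 below. Of all genes, 54.7% lay above both levels and 27.8% below, so neither share of the mucin list exceeded that of all genes. The list includes genes without a MUC symbol, such as EMCN. MUC16, the CA125 antigen, read 6.95, 7.81, 6.82 and 6.68, so that array 2 alone rose over the higher level. MUC7, MUC17, MUC19 and EMCN were at or below the lower level, between 4.33 and 5.51.

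Enzymes that build mucin sugars were bright too. Of 32 measured, 23 lay above both levels (71.9%, against 54.7% of all genes), with a median of 8.61. GCNT3 and B3GNT6, which make the core 2 and core 3 branches of mucin sugars, had means of 10.96 and 10.88, and GALNT7, GALNT2, B3GNT3 and FUT8 had means of 10.45, 10.22, 10.14 and 10.05. ST6GALNAC1, the sialyl-Tn synthase, was at 9.96. A4GNT, which caps the glycans of gastric gland mucin, lay below the lower level at 5.22, as did GCNT4 at 4.37 and CHST4 at 5.35.

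Receptors divided by family. Among 49 receptor tyrosine kinases 21 lay above both levels (42.9%, against 54.7% of all genes) and 17 below (34.7%, against 27.8%). Their median was 6.60. FGFR2, a fibroblast growth factor receptor that is amplified in some diffuse gastric carcinomas, read 11.73, 11.80, 11.72 and 11.65 (percentile 98.1). MET, the receptor of hepatocyte growth factor, read 11.37, 11.61, 11.42 and 11.25. For both, array 2 was highest and array 4 lowest, within 0.35 log2. RYK, DDR1, ERBB3 and EPHB4 had means of 11.07, 10.77, 10.60 and 9.96, where the probe sets of DDR1 disagree by 6.16 log2.

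The other ERBB receptors were above both levels too, with ERBB2 at 9.37 and EGFR at 8.45. KIT, FLT1 and EPHA6, receptors of stem cell factor, vascular endothelial growth factor and ephrins, were at the floor, at 4.97, 4.93 and 4.77. Of 34 growth factor ligands, 9 lay above both levels (26.5%, against 54.7% of all genes). VEGFA had the highest mean, 10.21, followed in rank by EFNB2, VEGFB, EFNB1, EFNA1 and HBEGF between 8.23 and 8.70. The ligands FGF7, FGF9 and EPGN were at 4.60, 4.72 and 3.84. HGF, the ligand of MET, lay between the levels at 6.92, and FGF7, a ligand of one FGFR2 isoform, was at the floor.

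Receptors of developmental pathways were nearly all bright. Of 32 Wnt, Hedgehog, Notch, TGF-beta and BMP receptors, 28 lay above both levels (87.5%, against 54.7% of all genes) and 1, LGR5, below. LRP5 and FZD5, which together bind Wnt, had means of 10.32 and 10.11. Of 35 cytokine and death receptors, 23 lay above both levels (65.7%), led by IL13RA1 at 11.07 and LTBR at 10.81. IL13RA2, IL18R1 and OSMR were at 3.80, 4.26 and 4.55. The chemokine receptor CXCR4 read 6.04, 7.12, 6.38 and 6.65 and IL2RG, the common gamma chain, 8.57, 9.35, 8.44 and 8.59, with array 2 highest for both. Of 24 nuclear receptors, 12 lay above both levels and 10 below. NR2F6, an orphan receptor, had a mean of 11.10, while the estrogen receptor ESR1 and the glucocorticoid receptor NR3C1 were at 5.87 and 5.21.

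Among genes of epithelial junctions, 9 of 17 cadherins and catenins lay above both levels (52.9%, near the 54.7% of all genes). CDH1, E-cadherin, read 12.06, 12.06, 12.04 and 11.93 (percentile 98.7). JUP, gamma-catenin, had a mean of 11.62, CTNNB1, beta-catenin, one of 10.996 and CTNNA1, alpha-catenin, one of 10.94. A gene-level probe set does not show which form of beta-catenin is made. CDH11, a cadherin of mesenchymal cells, read 9.46, 9.97, 9.90 and 9.86, above the higher level on every array. CDH2, N-cadherin, was below the lower level at 5.63.

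Of 29 tight junction genes 16 lay above both levels (55.2%), again near the share of all genes. EPCAM, the epithelial cell adhesion molecule, had a mean of 12.38, and the claudins CLDN3, CLDN7 and CLDN12 had means of 12.31, 11.96 and 11.44. Of 15 desmosome genes 10 lay above both (66.7%), with DSP, PERP and DSG2 between 11.29 and 11.43. The simple epithelial keratins KRT8, KRT19 and KRT18 had means of 13.08, 11.99 and 11.81. KRT7, a keratin of ducts, was at 8.42. In all, 7 of 20 keratins lay above both levels, and the squamous KRT5 was at 6.49.

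**Figure D3:**
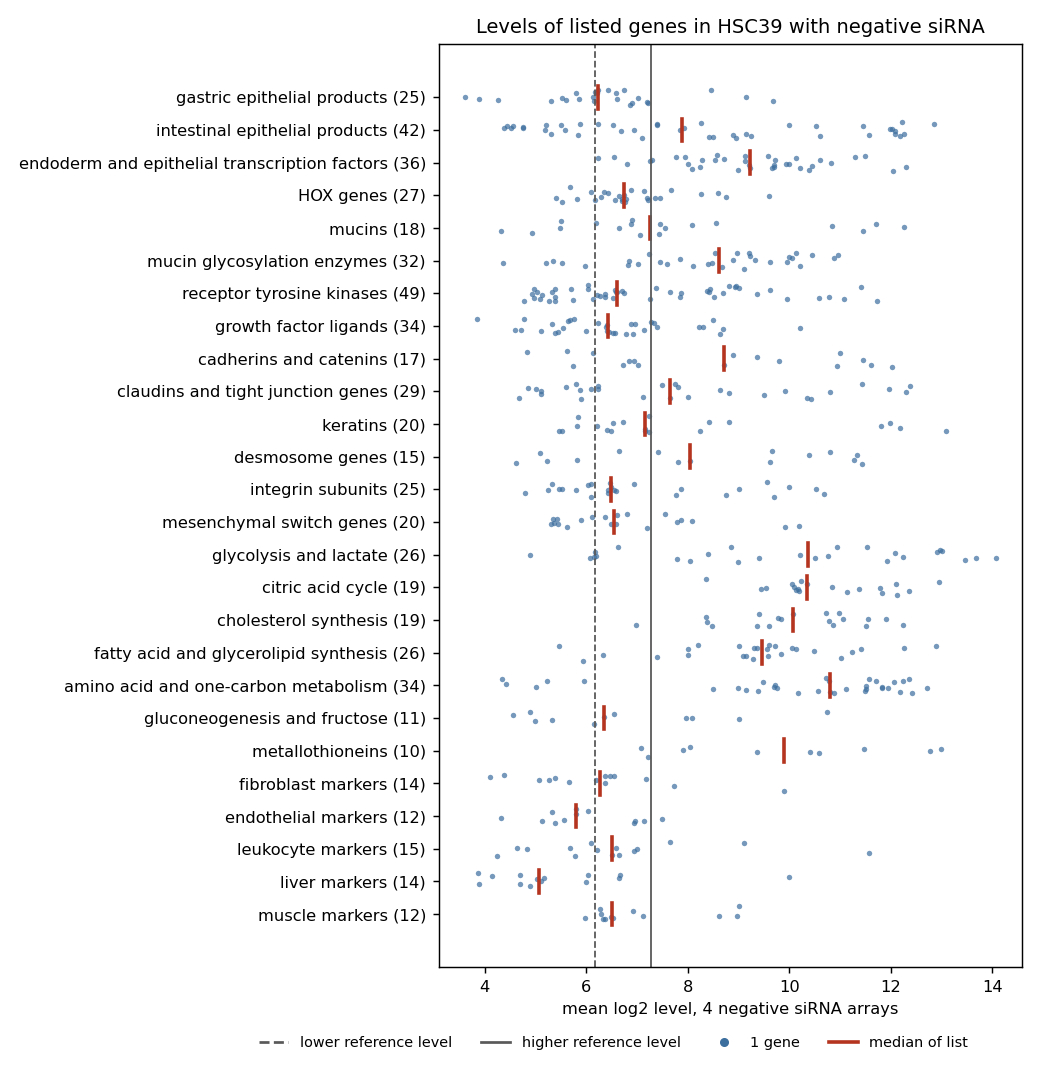
Mean log2 level in the 4 negative siRNA arrays (x axis) of the measured genes of each list (rows); each point is a gene, and the lines mark 6.17 and 7.27. Citric acid cycle genes lie wholly right of both lines, and gastric products mostly left of the solid one.

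Matrix receptors were mixed. Of 25 integrin subunits 9 lay above both levels (36.0%, against 54.7% of all genes) and 9 below (36.0%, against 27.8%). ITGA6 and ITGA2, which bind laminin and collagen, had means of 10.68 and 10.53. ITGA5, the fibronectin receptor subunit, read 8.47, 10.02, 8.74 and 8.78, a gap of 1.25 between array 2 and the next array. LAMB1 and LAMC1, laminin chains, were at 10.38 and 10.01.

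Markers of a mesenchymal state were mostly not bright. Of 20 measured, 6 lay above both levels and 8 below. VIM, vimentin, read 6.06, 5.73, 5.85 and 5.93, below the lower level on all 4 arrays, and ZEB1 had a mean of 5.43. FN1, fibronectin, lay between the levels at 6.50. The list counts ESRP2, an epithelial splicing factor that is lost in the switch, and it was at 10.20. S100A4, a calcium binding protein of motile cells, was at 9.92, and SNAI1, a repressor of E-cadherin, at 8.09.

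The markers of other cell types were largely at or near the reference levels. Every one of these lists had a smaller share above both levels than the 54.7% of all genes. Of 14 fibroblast markers 2 lay above both levels, LUM at 9.90 and COL1A1 at 7.74, while DCN was at 4.38. LUM, a matrix proteoglycan, read 9.88, 10.17, 9.90 and 9.65. Of 12 endothelial markers only CLDN5, at 7.49, passed. Of 15 leukocyte markers 3 passed, namely LYZ at 11.57, which gut epithelium also makes, CD68 at 9.11 and TYROBP at 7.65, and PTPRC, the pan-leukocyte CD45, was at 4.25. Of 14 liver markers 1 passed, SERPINA1 at 9.99, and ALB was at 4.89. Of 14 neural and neuroendocrine markers 4 passed, with the endocrine factor INSM1 highest at 9.50, and of 12 muscle markers 3, DES, ACTA1 and MB, at 9.02, 8.96 and 8.62. Of 9 squamous markers 1 passed. The mean of each of these lists differed between arrays by 0.30 log2 at most.

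HOX genes mark position along the body. Of 39 listed, 12 are not analysed here, among them 10 of 11 HOXA genes, so the clusters cannot be compared. HOXC12, HOXC10, HOXC11 and HOXC13 had means of 9.61, 8.76, 8.59 and 8.27, and 7 of 27 measured HOX genes lay above both levels (25.9%, against 54.7% of all genes), 3 of them outside the HOXC cluster, with a list median of 6.75. Of the 27, 24 had their lowest value on array 2, where all genes gave 42.4%. Most of the 27 were dim, with 14 between the levels and 6 below. Array 2 was lowest for 1827 of all 3220 genes between the levels and for 50.4% of those below. Cancer testis antigen genes were mostly low, with 12 of 20 below the lower level (60.0%, against 27.8% of all genes). Of 24 oncogenes and tumour suppressors of gastric carcinoma 20 lay above both levels, among them CD44 at 13.23, RHOA at 12.38, TRIM44 at 11.90 ± 0.11 (SD, n = 4) and MYC at 11.44. RHOA, a small GTPase mutated in diffuse gastric carcinoma, had an SD of 0.02. CDKN2A, the locus of p16, was below the lower level at 6.05. Of 35 cell cycle genes 32 lay above both levels.

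Antigen presentation and interferon genes ranged from bright to the floor. Of 16 measured, 8 lay above both levels, with TAPBP at 11.65 and B2M at 10.88, and CD274, the ligand of PD-1, was at 4.49. The probe sets of TAPBP disagree by 4.33 log2. B2M, the light chain of class I molecules, read 10.74, 11.17, 10.88 and 10.73. Of 19 interferon response genes 9 lay above both levels (47.4%) and 8 below (42.1%, against 27.8% of all genes). They ran from OAS1 at 10.23 to IFI44 at 4.00.

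Central carbon metabolism was bright. All 19 citric acid cycle genes lay above both levels, with a median of 10.35, and so did 20 of 26 genes of glycolysis, with a median of 10.37. Apart from GAPDH and ENO1, LDHA, the lactate dehydrogenase, was at 13.47 and the glucose transporter SLC2A1 at 11.92. SLC2A1 read 11.67, 12.19, 11.83 and 11.98, lowest on array 1 and highest on array 2. The transporter SLC2A2 of liver and pancreas was at 4.89. Gluconeogenesis was divided, with 4 of 11 genes above both levels (36.4%, against 54.7% of all genes). PCK2, the mitochondrial carboxykinase, had a mean of 10.75, while the cytosolic PCK1 and FBP1 lay between the levels at 6.34 and 6.54.

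Lipid synthesis was bright as well. Of 26 genes of fatty acid and glycerolipid synthesis 23 lay above both levels, with SCD, the desaturase, at 12.89 and FASN at 11.23. Of 19 cholesterol synthesis genes 18 did, and 17 of the 19 had their lowest value on array 1, where all genes above both levels gave 27.8%. Of 34 genes of amino acid and one-carbon metabolism 29 lay above both levels, with a median of 10.80. In the pentose phosphate list 11 of 12 did, in fatty acid oxidation 16 of 19 and among detoxification enzymes 22 of 33, led by GSTP1. Of 10 metallothioneins 8 did, with MT2A at 12.99, and 9 of the 10 were highest on array 1 (background 16.9% of genes above both levels). Metallothioneins are close paralogs, and their probe sets may share transcripts.

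The spread among the 4 arrays was small for most genes. The median SD over the 4 arrays was 0.126 log2 over all genes and 0.114 over genes above both levels. Of 13753 probe sets above the lower level, the upper 1% by SD were 138, of 136 genes, with SDs from 0.380, and the next SD was also 0.380. Of these, 99 had their highest value on array 2, 61 their lowest on array 4 and 49 their lowest on array 1. Array 2 therefore carried most of this spread, and without it 59 of the 138 were again in the upper 1%. The probe set of highest SD, of SPCS2, a signal peptidase subunit, read 6.36, 7.65, 5.47 and 5.47. It lay partly below the lower reference level, and SPCS2 has a brighter probe set. TMA7, whose variable probe set (8.17, 9.23, 8.52 and 7.25) is again the dimmer of several, followed in rank.

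**Figure D4:**
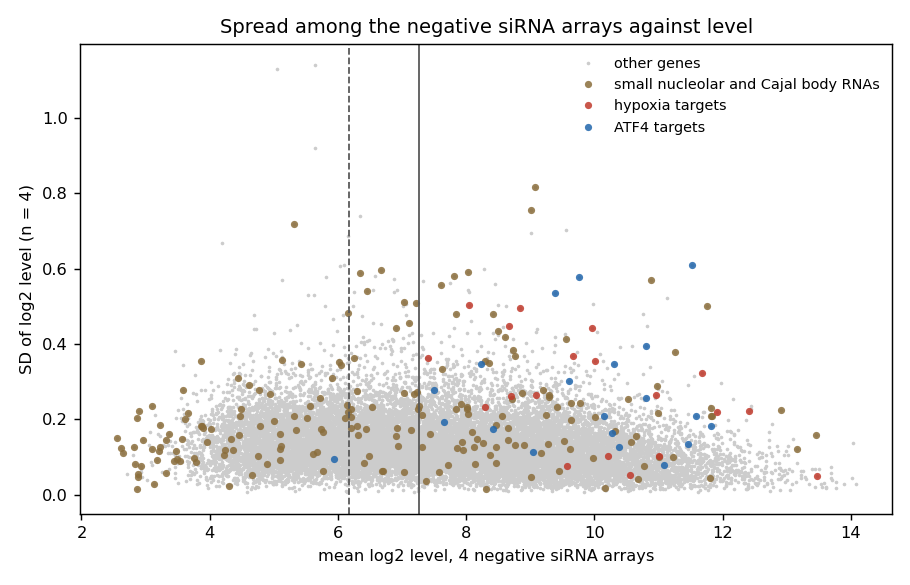
SD over the 4 negative siRNA arrays (y axis, log2) against mean level (x axis, log2), 1 point per gene, with hypoxia targets, ATF4 targets and small nucleolar and Cajal body RNA genes in colour and the reference levels as lines. Most genes lie under 0.4, and coloured points make up many of those above it.

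Short structural RNAs were one group among them. Small nucleolar and Cajal body RNAs guide the chemical modification of ribosomal and spliceosomal RNA, and most are cut from introns of host genes. They made up 21 of the 138 probe sets, and 116 of all 13753. SNORD45B read 8.80, 10.25, 8.87 and 8.37, SNORA38B read 8.48, 10.14, 8.76 and 8.68, and SCARNA12 read 10.56, 11.72, 10.76 and 10.48. Array 2 stood 1.39, 1.37 and 0.95 log2 above the next array for these genes. Over all 192 genes of this kind, 67 were in the upper 10% by SD (background 10.0%), and 115 had their highest value on array 2 (27.5% of all genes). Without array 2, 39 of the 192 were in the upper 10%. The spliceosomal RNU4-2 (6.01, 7.44, 6.11 and 5.81) and the secondary probe sets of RPS9, RPS3A and RPL7 were also among the 138. RPS9 also has a brighter probe set, at 12.40 with an SD of 0.02. The 5 probe sets of RPS3A had SDs from 0.12 to 0.59. That at 10.51 had an SD of 0.34, and the dimmest, at 5.50, one of 0.13.

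EGR1 and ITGA5 were also among the 20 probe sets of highest SD. EGR1, a transcription factor induced by growth signals, read 9.16, 10.60, 9.16 and 9.30, and its other negative arrays were within 0.14 log2 of each other. ITGA5, given above with the integrins, was likewise highest on array 2. On the siRNA 9 arrays EGR1 was at 10.75 and 10.74 and ITGA5 at 10.21 and 10.09, while on the siRNA 7 arrays EGR1 was at 9.27 and 9.06 and ITGA5 at 8.64 and 8.43. For 66 of the 99 probe sets that were highest on negative array 2, both siRNA 9 arrays lay above the other 3 negative arrays, and for 19 both siRNA 7 arrays did. Among all 4604 probe sets above the lower level that were highest on array 2, these shares were 52.8% and 24.3%, and among all 13753 they were 24.1% and 13.3%. Nothing in the labels sets array 2 apart. Probe sets highest on array 2 were picked from these same negative arrays, so the other 3 are lower there by selection. These shares therefore do not measure how near array 2 as a whole lay to the siRNA 9 arrays. That nearness and its cause were not tested. Of 19 genes of the ERK pathway's output, 3 were in the upper 10% by SD, EGR1, ETV5 and FOS, and of 25 integrin subunits 1 was (background 10.0%).

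ZG16 and DPP4, both of the intestinal list, were also represented among the 138. ZG16, a goblet cell lectin, read 8.06, 9.08, 8.47 and 8.39, and its other probe set was also among the 138. DPP4, a brush border peptidase, read 8.23, 9.05, 8.34 and 8.08. SLC34A2, a phosphate transporter outside the lists, ran the other way at 7.57, 6.37, 7.13 and 6.45, highest on array 1. The remaining probe sets of the first 20 were of TCF19, LINC01559, SNORD82, SNORD58A, SCARNA1, SCARNA9 and LOC399975, each highest on array 2. That of TCF19 is its dimmer one, and the brighter, at 8.35, had an SD of 0.06.

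Targets of the hypoxia response moved between the arrays as a block. Cells short of oxygen stabilise hypoxia-inducible factors, which bind DNA at the core letters ACGTG and raise genes of glucose use, collagen hydroxylation and oxygen sensing. Of 19 measured targets, all lay above both levels, 17 had their highest value on array 2 (background 38.4% of genes above both levels) and 18 their lowest on array 1 (27.8%). Their centred means on arrays 1 to 4 were -0.27, 0.33, -0.08 and 0.01 log2, and 12 were in the upper 10% by SD. Without array 2, 8 of the 19 were in the upper 10%, and without array 1 also 8. The list was chosen with earlier results of these data known, so these shares are description and not a test.

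PFKFB4, a regulator of glycolysis, read 7.55, 8.73, 7.82 and 8.08. KDM3A, a histone demethylase, read 8.43, 9.55, 8.67 and 8.67, and the oxygen sensor EGLN3 read 9.40, 10.45, 9.87 and 10.12. INSIG2, a brake of sterol synthesis, read 8.21, 9.27, 8.65 and 8.51, and P4HA1, a collagen prolyl hydroxylase, 9.38, 10.20, 9.53 and 9.53. For all 5 array 2 was highest and array 1 lowest. LDHA, PDK1 and MXI1 are in the same list and had SDs of 0.05, 0.05 and 0.08, so not every target spread. VEGFA, at 10.28, 10.12, 10.32 and 10.13, was the one target lowest on array 2.

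Promoters of INSIG2 and P4HA1 are shown because both genes moved in this block and hold the core letters. Each run is the 250 bases before the RefSeq start on GRCh38.p14, 5' to 3' on the gene's strand, with the match in capitals. For INSIG2 this is chr2:118088221-118088470 on the plus strand, with the match 95 bases before the start. For P4HA1 it is chr10:73096867-73097116 on the minus strand, with the match 86 bases before. Both matches read CACGT, the reverse strand of ACGTG.
INSIG2: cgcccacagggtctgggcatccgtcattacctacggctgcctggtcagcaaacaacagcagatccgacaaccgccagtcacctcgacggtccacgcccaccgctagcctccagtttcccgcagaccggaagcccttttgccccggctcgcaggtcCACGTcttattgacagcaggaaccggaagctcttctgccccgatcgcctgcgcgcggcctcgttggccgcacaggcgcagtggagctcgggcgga
P4HA1: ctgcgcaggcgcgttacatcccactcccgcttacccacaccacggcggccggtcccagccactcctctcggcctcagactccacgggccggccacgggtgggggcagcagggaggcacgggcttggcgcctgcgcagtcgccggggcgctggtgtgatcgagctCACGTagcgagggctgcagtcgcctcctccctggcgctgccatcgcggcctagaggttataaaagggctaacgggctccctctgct
The letters ACGTG, searched on both strands, occurred in 10 of 16 hypoxia targets with a promoter entry (62.5%) and in 21.7% of 27195 genes. Counted by promoter, they occurred in 11 of the 25 entries of these targets (44.0%) and in 18.5% of 34961 promoters. A match of letters is not a measured binding site. The list was made of genes named as targets of this response, so a raised share may come from that choice. These shares do not bear on why the arrays differ, and the cause was not tested.

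Targets of ATF4 moved in a different order. ATF4 is a transcription factor made when amino acids run short or the secretory pathway is stressed, and it raises amino acid synthesis and transport. Of 20 measured targets 19 lay above both levels, 12 had their highest value on array 1 (background 16.9% of genes above both levels), 5 on array 3 and 0 on array 4, while 10 were lowest on array 4 (28.4%). The centred means on arrays 1 to 4 were 0.21, -0.16, 0.15 and -0.19, and 9 were in the upper 10% by SD. That count was 8 to 10 with any of the 4 arrays left out. This list too was chosen with earlier results known, so its shares are likewise only description.

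PHGDH, the first enzyme of serine synthesis, read 12.27, 11.12, 11.76 and 10.94. ASNS, asparagine synthetase, read 10.40, 9.37, 10.08 and 9.17. CTH, which makes cysteine, read 9.84, 9.13, 9.83 and 8.75, and SLC7A11, the cystine importer, 11.11, 10.50, 11.18 and 10.43. Arrays 1 and 3 lay above arrays 2 and 4 for each of these. PCK2 had this order too, at 11.32, 10.34, 10.97 and 10.37, although it was listed under gluconeogenesis. CHAC1 and JDP2, a glutathione-degrading enzyme and a transcription factor, read 10.58, 9.83, 10.55 and 10.29, and 8.55, 7.74, 8.39 and 8.22, and were lowest on array 2. The gene ATF4 itself had an SD of 0.13, near that of the median gene. FGF21, a secreted target, was the one below the lower level, at 5.93.

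**Figure D5:**
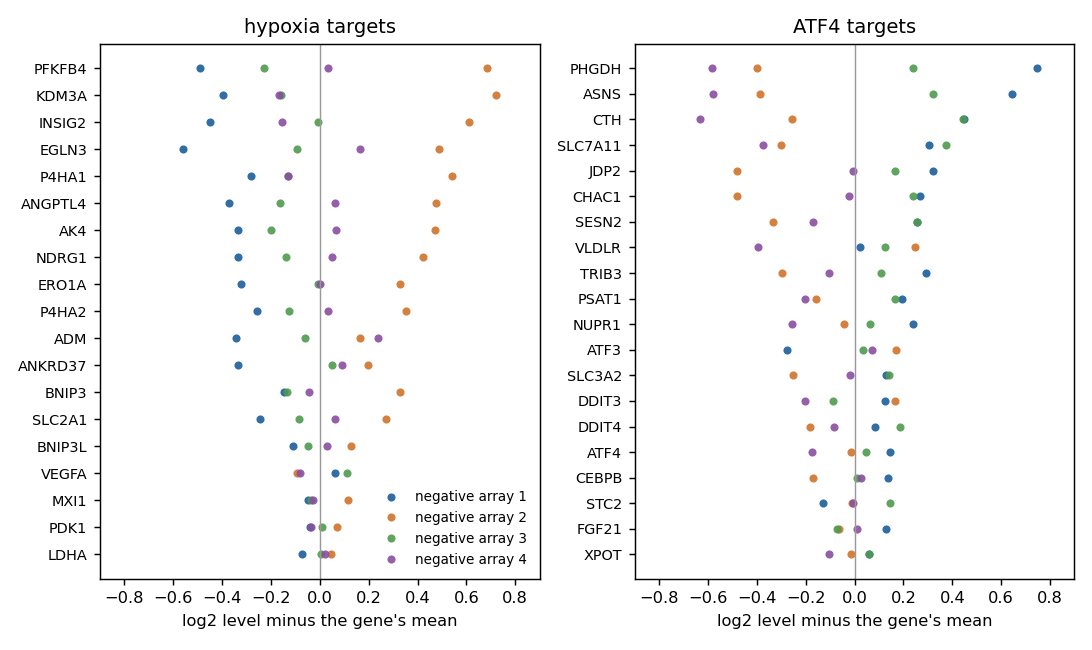
Log2 level minus the gene's mean over the 4 negative siRNA arrays (x axis, log2) for each hypoxia target (left panel) and ATF4 target (right panel), 1 row per gene and 1 coloured point per array. Hypoxia targets are low on array 1 and high on array 2, with list means of -0.27 and 0.33; ATF4 targets are high on arrays 1 and 3.

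Promoters of ASNS and JDP2 are shown for the same reason, with the letters TGATGNAA, the composite site that ATF4 shares with partner factors, in capitals. ASNS is chr7:97872409-97872658 on the minus strand, with the match 68 bases before the start, and JDP2 is chr14:75427772-75428021 on the plus strand, with the match 16 bases before. ASNS has 2 promoter entries and JDP2 has 3, and for each gene only the 1 entry shown holds the letters.
ASNS: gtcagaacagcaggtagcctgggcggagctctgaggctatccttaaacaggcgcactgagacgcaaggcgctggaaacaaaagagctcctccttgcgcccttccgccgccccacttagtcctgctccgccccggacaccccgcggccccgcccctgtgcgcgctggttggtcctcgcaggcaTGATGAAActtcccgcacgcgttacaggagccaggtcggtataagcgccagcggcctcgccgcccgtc
JDP2: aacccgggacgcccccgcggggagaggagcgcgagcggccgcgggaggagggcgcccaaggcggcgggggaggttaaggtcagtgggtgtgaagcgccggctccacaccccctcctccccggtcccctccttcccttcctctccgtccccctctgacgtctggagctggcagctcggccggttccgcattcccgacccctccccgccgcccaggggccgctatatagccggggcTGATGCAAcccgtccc
On both strands these letters occurred in 5 of 18 ATF4 targets with an entry (27.8%) and in 3.88% of genes. Counted by promoter, they occurred in 5 of the 29 entries of these targets (17.2%) and in 3.14% of promoters. The same limits hold here, since the list was made of genes named as ATF4 targets and no binding was measured.

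Other stress lists moved less. Of 16 genes of the unfolded protein response, all lay above both levels, 13 were highest on array 2 (background 38.4% of genes above both levels) and 0 were in the upper 10% by SD. HSPA5, a chaperone that folds secretory proteins, had an SD of 0.12. The same probe sets can be read within the pairs of TRIM44 arrays of 1 reagent. Of the 138 probe sets, 79 (57.2%) were in the upper 10% of absolute differences within the siRNA 7 pair and 45 (32.6%) within the siRNA 9 pair, where the background is 10.0%. For the ATF4 targets, siRNA 7 array 2 lay below array 1 in 19 of 20, with a median of array 2 minus array 1 of -0.59 log2, and in the siRNA 9 pair in 15 of 20, with a median of -0.15. Over all genes, array 2 lay below array 1 in 56.2% of genes in the siRNA 7 pair and in 62.1% in the siRNA 9 pair. Of 19 hypoxia targets, array 2 lay below array 1 for 6 in the siRNA 7 pair and 11 in the siRNA 9 pair. Their medians of array 2 minus array 1 were 0.04 and -0.01 log2. Sample number and this order cannot be tied to a culture or a day from the labels.

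These 4 arrays are also the controls of the study's comparison. With all 4 TRIM44 arrays against the 4 negative ones, limma called 1 of 19158 probe sets (0.00522%), which was TRIM44 at -0.81 log2 (adjusted p = 0.0449). The adjusted p of TRIM44 was 0.0306 to 0.291 with 1 array left out, and it was above 0.05 without any 1 of the 4 negative arrays. EGR1, ITGA5, KDM3A, PHGDH, ASNS and CTH, which ranged over more than 1 log2 among the negative arrays, were not called, at differences of 0.40, 0.34, 0.32, -0.24, -0.38 and -0.45.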

How the data were processed

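RNA of 8 HSC39 samples was measured on Affymetrix whole-transcript arrays. The authors deposited log2 levels for 32321 probe sets, and limma was used per the submitters' processing notes. For normalization, background handling and genome build, the sources used here give nothing, nor do they give signal over background. The number of arrays limits the precision. Gene names came from the platform annotation: 19158 probe sets had 1 symbol, 1388 several and 11775 none, and the last 2 kinds were left out. For 637 genes with more than 1 probe set, that of highest mean was used.

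Groups followed the sample labels. For the 4 negative siRNA arrays, mean, SD and percentile of each probe set were computed. The main reference level was the 95th percentile of olfactory receptor genes, and the level from eye, testis and blood genes was the alternative; reading genes against both was chosen after seeing the data. In 47 lists, 988 of 1133 listed genes were measured, and the others are not analysed here. The members and lists were chosen with earlier results of these data known, and the list of small nucleolar RNAs was added after seeing them. Named genes were TRIM44, the defining, highest and lowest members of each list, the 15 highest means, the 20 highest SDs above the lower reference level, and list members in the upper 1% by SD; a few further members are named for background or as contrasts, chosen after their values were seen.

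The TRIM44 arrays were compared with the negative ones in a 2-group limma fit with Benjamini-Hochberg adjustment over 19158 probe sets, threshold 0.05, tested on simulated data. The series counts the samples as biological replicates but does not say how the cultures were kept apart. The p-values of this fit therefore cover only the spread seen among the samples, possibly technical. Alternatives were other percentiles, quantile normalization, median centring, the median over a gene's probe sets, a variance prior with trend, 3 group means, the replicate number as a block, and leaving out each array. Promoters are from RefSeq on GRCh38.p14. R 4.3.3, limma 3.58.1, Python 3.11.15, pandas 2.3.3, numpy 2.4.6 and matplotlib 3.10.9 were used.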

Additional observations from a re-analysis of the deposited data

Results flagged for a closer look

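With 4 arrays, a sample was set apart when its gap to the nearest array, divided by the whole range, exceeded the 95% critical value of Dixon's test. Chance flags about 1 in 20 groups, and 5.07% of all 18404 genes passed. Among the 221 genes named here 13 passed (5.88%).

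Array 2 stood above the others for EGR1 (gap over range 0.902), TFF1 (0.917), TFF3 (0.861), SERPINA1 (0.914), IL2RG (0.842), MXI1 (0.883), SNORA38B (0.830) and SCARNA1 (0.830). TFF1 and TFF3 encode trefoil peptides secreted with mucus, and TFF2, the other of that family, was not in this group. Array 4 stood above the others for CDX1 (0.973) and GHRL (0.835), and below them for CDH1 (0.832). Array 3 stood below the others for DCN (0.845), a gene at the floor, and array 1 for VIL1 (0.837). The gap for CDH1 and VIL1 was large only against a narrow range, 0.13 and 0.10 log2. The cause was not tested for any of these.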

How the results depend on the processing

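The count of genes above the lower reference level, 13293, ran from 10073 to 14297 over the references, normalizations and probe set rules, and from 13239 to 13397 with 1 array left out. The count above both levels, 10073, ran from 6973 to 10965, and from 9944 to 10219 with 1 array left out. Of 329 recomputed list counts, 328 kept within 1.5 times; the squamous list went from 1 to 3 without array 4. Of 1547 recomputed gene levels, 1526 moved by less than 1 SD, and the other 21 changed when the median over a gene's probe sets was used. MUC12 and MUC21 then left the band above both levels, at 6.81 and 5.83, and without array 2 GAST, RNU4-2 and SCARNA1 changed band. Of the 138 most variable probe sets, 121 to 133 recurred under other measures, filters or normalizations, and 59 to 121 with 1 array left out, lowest without array 2.

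In the limma comparison of TRIM44 with negative siRNA, 1 probe set was called, and 1041 had an unadjusted p under 0.05. With the replicate number as a block 0 were called (733 under 0.05), with median centring 0 (1094), with a trended and robust variance prior 2, and with 3 group means 4. With 1 array left out 0 to 2 were called. The adjusted p of TRIM44 ranged from 0.00367 to 0.998, and its difference from -0.73 to -0.88. The 0.998 came from the block fit. Numbers 3 and 4 occur only among the negative arrays, so that fit sets only negative arrays 1 and 2 against the TRIM44 arrays. Same-numbered arrays correlated in their deviations at 0.268, 0.0583, 0.306 and 0.131, not all over 0.1. Negative array 4 and siRNA 9 array 1, which differ in number, gave 0.162. The 2 arrays of a reagent mirror each other in their deviations, so these values cannot decide on pairing. The numbers were not taken as pairs. Depth cannot be read from these files, and dim signal cannot be told from none.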
